A study of Homo sapiens with 2 samples.

Results

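The interferon-stimulated genes and RNA sensors described here are 46 genes chosen by name, and all 46 were found among the 57485 genes of the deposited tables. They were grouped as 6 sensors, 5 signal factors and 35 effectors. The data were 2 RNA-seq libraries of ARP1, a human multiple myeloma (MM) cell line, carrying a lentiviral short hairpin RNA (shRNA) against SRD5A1 that is expressed when doxycycline (Dox) is present. There was 1 library of untreated cells and 1 library labelled with Dox, so no difference given here has a replicate check. Both titles name SRD5A1, but the genotype labels differ, with SRD5A1 for the untreated library and SRD5A2 for the other. The cells are 1 lentiviral line, and the sources used here do not say whether it is a clone. Both libraries came from cells with the lentivirus, no library of Dox-treated cells without the hairpin was analysed here, and the dose and duration of Dox for these libraries are not given in the sources used here. The effects of Dox and of the hairpin RNA therefore cannot be told apart.

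Cells detect double-stranded RNA with sensors in the cytosol and in endosomes. RIG-I and MDA5 signal through the mitochondrial adaptor MAVS to the transcription factors IRF3 and IRF7, which switch on the genes of type I interferon. Secreted interferon then acts through its receptor on a complex that holds STAT2 and IRF9, which binds interferon-stimulated response elements (ISREs) in front of effector genes. Effectors such as the IFIT, MX and OAS proteins block steps of viral replication. Many cell types also keep some of these genes at a steady level without interferon. The comparison here asks whether the RNA of this pathway differed between the libraries.

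The library totals were 45918570 expected counts without Dox and 48728927 with Dox, so 3 counts, the limit that a count of 0 allows, equal 0.0653 and 0.0616 CPM (counts scaled to the library total). SRD5A1, the targeted gene, was at 13.04 FPKM without Dox but at 25.88 FPKM where the label says Dox, a log2 fold change of 0.98, which goes against the label. Every direction below therefore rests on the labels alone. Of 10 plasma cell markers, 9 reached 1 FPKM, among them SDC1 (344.56 and 236.58 FPKM), IRF4 (409.73 and 513.92 FPKM) and PRDM1 (141.48 and 158.27 FPKM), while CD27 was listed with 2 and 7 counts. Of the 9, SLAMF7 (15.73 and 41.75 FPKM) and TNFRSF17 (97.72 and 203.73 FPKM) were more than 2-fold higher. That is 22.2%, beside 17.0% of all tested genes. None was more than 2-fold lower, and 5 of the 9 had a log2 fold change below 0. Among markers of T and NK cells, and of myeloid and plasmacytoid dendritic cells, 1 of 12 reached 1 FPKM, and CD3D, CD2, CLEC4C and LILRA4 were listed at 0 in both libraries. The summed level of the myeloid list was 1.31 and 2.16 CPM. Of 5 markers of earlier B cells, CD22 was listed at 0, BCL6 was at 0.49 and 4.51 FPKM, PAX5 went the other way, at 1.32 and 0.79 FPKM, and the list's sum was 11.2 and 19.2 CPM. Of 6 stromal, epithelial and red cell markers, 4 were tested, among them KRT18 with 339 and 85 counts (a log2 fold change of -1.99) and HBB with 6 and 18 counts (1.49), and this list's sum was 10.4 and 5.67 CPM. The part of these in the results was not tested.

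Values are given as FPKM, fragments scaled to effective length and library total, which allows levels to be compared between genes. For the fold change, 0.1 was added to each FPKM and the library labelled with Dox was divided by the other on the log2 scale, so values of low genes are understated. Genes that reached 1 FPKM in either library entered and are called tested genes, although no significance test is possible. The interval after a fold change is the exact binomial (Clopper-Pearson) 95% interval of the counts, without the pseudocount, and covers counting error only.

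Of the 46 members, 27 were tested and 19 stayed under 1 FPKM in both libraries. Among the tested members, 5 were more than 2-fold higher in the library labelled with Dox, namely STAT2, IRF7, SAMD9L, HERC5 and IFITM3, and 0 were more than 2-fold lower. That is 18.5% higher, beside 17.0% of all 14859 tested genes and 11.8% of the 11459 tested protein-coding genes, so the share past 2-fold was near the background. The share lower was 6.41% of all tested genes and 6.03% of the protein-coding ones. HERC5 and IFITM3 were under 1 FPKM without Dox and were tested only through the library in which they were higher. Differences of any size were mostly upward, as 22 of the 27 tested members had a log2 fold change above 0. That is 81.5%, beside 58.4% of all tested genes and 54.3% of the protein-coding ones. By the deposited FPKM and the 4 other scalings tried, 19 were always above 0, 4 always below 0, and the sign of 4 differed. The median of the tested members was 0.69, the median of all tested genes was 0.15 and that of protein-coding genes was 0.07. With no filter on low values the members' median was 0.45. With the TMM factors of edgeR applied to the FPKM, which shift the median of all tested genes by -0.21 to -0.06, the members' median was 0.48.

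**Figure D1:**
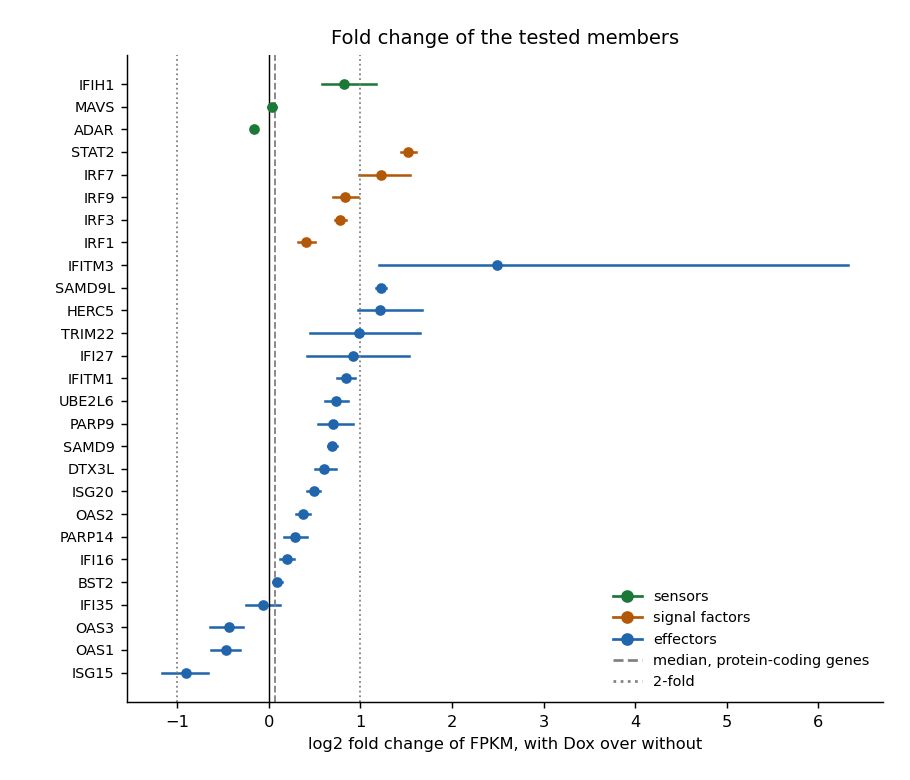
Log2 fold change of FPKM (with Dox over without, horizontal axis) of the 27 tested members, as points coloured by role, with bars for the exact binomial 95% interval, which is counting error alone. STAT2, IRF7, SAMD9L, HERC5 and IFITM3 lie to the right of the dotted 2-fold line, and ISG15 is the lowest at -0.91.

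The sensors comprise the helicases RIG-I (DDX58), MDA5 (IFIH1) and LGP2 (DHX58), the endosomal receptor TLR3, the adaptor MAVS, and ADAR, an enzyme that edits adenosines in double-stranded RNA. Their levels spanned a wide range, and those of the RNA receptors themselves were low. ADAR was listed at 176.13 FPKM without Dox and 157.17 FPKM with Dox, higher than 95% of tested protein-coding genes in each library, and took 44.1% and 34.5% of all counts of the 46 members. Its log2 fold change was -0.16 (-0.19 to -0.14). MAVS was listed at 12.29 and 12.58 FPKM, a log2 fold change of 0.03 (-0.01 to 0.08), whose sign turned with the TMM factors.

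IFIH1 was at 1.06 and 1.95 FPKM, which rests on 146 and 297 counts, a log2 fold change of 0.82 (0.58 to 1.17). It was thus the sensor with the largest difference among the 3 tested, and still below 2-fold. DDX58 was listed at 0.57 and 0.50 FPKM with 107 and 100 counts, and the interval of its FPKM ratio, -0.59 to 0.22, included 0. DHX58 was listed at 0.58 and 0.91 FPKM with 29 and 68 counts, and the interval of its FPKM ratio was 0.01 to 1.34. TLR3 was at 0.13 and 0.09 FPKM. None of the 3 sensors DDX58, DHX58 and TLR3 reached 1 FPKM in either library. The summed level of the 6 sensors, most of it ADAR, was 935.2 CPM without Dox and 882.4 with Dox.

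The signal factors were all tested, and all 5 were higher with Dox, by the deposited FPKM and by each of the 4 other scalings tried. Of all tested genes, 58.4% had a log2 fold change above 0. The effective length of STAT2, IRF3, IRF7 and IRF9 differed by over 0.1 on the log2 scale, and that of IRF1 did not. STAT2, a subunit with IRF9 of the complex that binds ISREs (ENSG00000170581.13, chromosome 12 from 56341597 to 56360155), was at 14.29 and 41.16 FPKM. The log2 fold change was 1.52 (1.44 to 1.61) on 1479 and 4107 counts, larger than in 94.7% of tested protein-coding genes. IRF7, the factor that amplifies interferon gene expression (ENSG00000185507.20, chromosome 11 from 612553 to 615999), was at 3.03 and 7.24 FPKM, with a log2 fold change of 1.23 (0.98 to 1.54). In both genes the library labelled with Dox was the higher one by more than 2-fold. That is 2 of the 5, or 40%, beside 17.0% of all tested genes and 11.8% of the protein-coding ones.

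IRF9, the DNA-binding subunit of that complex, was at 14.98 and 26.71 FPKM (0.83, 0.70 to 0.97). IRF3, which is present in resting cells and activated by phosphorylation, was the most abundant signal factor, at 92.51 and 158.62 FPKM (0.78, 0.72 to 0.84). IRF1, a factor with broader roles in immunity, was at 26.52 and 35.24 FPKM, a log2 fold change of 0.41 (0.32 to 0.50). The summed level of the 5 signal factors was 161.4 CPM without Dox and 268 with Dox. RNA levels do not measure the phosphorylation that activates these proteins.

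Among the 35 effectors, 19 were tested, of which 3, or 15.8%, were past 2-fold upward and 0 downward. The share upward lay between that of all tested genes, 17.0%, and that of the protein-coding ones, 11.8%. The median of the tested effectors was 0.60. SAMD9L, a protein that restricts viral translation and cell growth (ENSG00000177409.11, chromosome 7 from 93130055 to 93148369), went from 14.02 to 32.75 FPKM on 3670 and 8774 counts, a log2 fold change of 1.22 (1.17 to 1.28). Its neighbour and paralog SAMD9 was at 21.83 and 35.32 FPKM (0.69, 0.65 to 0.74). These intervals do not overlap, so at this depth the ratio of SAMD9L was the larger of the pair.

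The ISG15 system attaches a small ubiquitin-like protein to other proteins, and its genes differed in direction. ISG15 itself (ENSG00000187608.9, chromosome 1 from 1001138 to 1014540) was at 16.47 FPKM without Dox and 8.73 FPKM with Dox on 354 and 198 counts. Its log2 fold change was -0.91 (-1.17 to -0.66), the lowest of the tested members, and with the TMM factors it was past 2-fold at -1.12. UBE2L6, the enzyme that carries ISG15, was higher, at 15.09 and 25.09 FPKM (0.73, 0.61 to 0.86). HERC5, the ligase of the system (ENSG00000138646.8, chromosome 4 from 88457117 to 88506163), was at 0.68 and 1.70 FPKM on 100 and 226 counts (1.21, 0.97 to 1.67). USP18, the protease that removes ISG15, was listed with 3 and 11 counts. HERC6, the paralog and neighbour of HERC5, was listed with 50 and 34 counts.

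The oligoadenylate synthetases make the messenger that activates RNase L. The 3 genes lie side by side on chromosome 12 from 112906777 to 113011723 and did not share a direction, each keeping its sign with the 4 other scalings. OAS1 was at 14.12 and 10.17 FPKM (-0.47, -0.63 to -0.32) and OAS3 at 2.23 and 1.62 FPKM (-0.44, -0.64 to -0.28). OAS2 was at 19.53 and 25.33 FPKM (0.37, 0.30 to 0.45), but its CPM differed by only 0.05 on the log2 scale, and most of its FPKM difference came with a shorter effective length. OASL, a relative without synthetase activity, was listed with 16 and 12 counts.

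The IFITM proteins block virus entry at membranes, and their genes form a cluster on chromosome 11 from 307631 to 327537. IFITM1 was the abundant one, at 45.59 and 81.54 FPKM, a log2 fold change of 0.84 (0.74 to 0.94). IFITM3 (ENSG00000142089.15) was listed with 2 counts without Dox and 25 counts with Dox, 0.12 and 1.14 FPKM. Its log2 fold change of 2.49 was the highest of the tested members and has a counting interval of 1.20 to 6.33. IFITM2 was at 0.36 and 0.20 FPKM with 6 and 5 counts. The genes are similar in sequence, and IFITM1 and IFITM2 overlap in the annotation. With Dox the counts of IFITM1 (2402.99) and IFITM3 (25.01) were barely off whole numbers, and without Dox they were whole. How far reads were shared between these genes was not tested.

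Other effectors at high levels differed little or by less than 2-fold. BST2, known as tetherin, was the most abundant member, at 193.55 and 205.87 FPKM (0.09, 0.04 to 0.14), and its sign turned with the TMM factors. ISG20, an exonuclease of RNA, was at 98.96 and 139.06 FPKM (0.49, 0.42 to 0.56). IFI16, a sensor of DNA, was at 21.94 and 25.18 FPKM (0.20, 0.12 to 0.28), with a sign that turned with the TMM factors. IFI35, a partner of NMI, was at 13.37 and 12.79 FPKM, and the interval of its fold change, -0.25 to 0.12, included 0.

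PARP9 and DTX3L, whose proteins form a complex and whose genes start next to each other on opposite strands of chromosome 3, differed alike. PARP9 went from 2.06 to 3.42 FPKM (0.70, 0.54 to 0.92) and DTX3L from 3.73 to 5.71 FPKM (0.60, 0.50 to 0.73). The intervals overlapped. PARP14, an ADP-ribosyltransferase further along the same chromosome, was at 2.75 and 3.38 FPKM (0.29, 0.17 to 0.42). TRIM22, an antiviral ligase, was at 2.72 and 5.48 FPKM on 37 and 77 counts (0.98, 0.45 to 1.65). Its effective length was 300 and 287 bases, and it overlaps TRIM5 on the other strand. IFI27, a small mitochondrial protein, was at 1.52 and 2.96 FPKM on 37 and 123 counts (0.92, 0.42 to 1.53).

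The effectors that were not tested included many of the genes best known for strong induction by interferon. RSAD2 and CMPK2, neighbours on chromosome 2, were listed at 0 in both libraries. MX1 was listed with 2 and 3 counts, and MX2 with 63 and 56 counts. The 4 IFIT genes, which bind viral RNA and lie together on chromosome 10 from 89283694 to 89421001, were all under 0.3 FPKM. IFIT1 was listed with 4 and 4 counts, IFIT2 with 4 and 10, IFIT3 with 26 and 16 and IFIT5 with 4 and 13. No gene of this cluster came near 1 FPKM in either library. IFI44L was listed with 0 and 1 counts, IFI44 with 1 and 11 and IFI6 with 17 and 15.

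All 19 members that were not tested held 360 counts together without Dox and 444 with Dox, with medians of 6 and 12 counts per gene, and 4 had at most 3 counts in both libraries. Of the 15 with more counts, the interval of the FPKM ratio included 0 for 12. It lay above 0 for XAF1 and, narrowly, DHX58, and below 0 for MX2. XAF1, a protein that promotes apoptosis, had 7 counts without Dox and 62 with Dox, 0.06 and 0.53 FPKM, a log2 FPKM ratio of 3.10 (1.97 to 4.47) without a pseudocount. For MX2 the log2 FPKM ratio was -0.99 (-1.54 to -0.45), of which -0.26 was in the CPM and the rest in the effective length. The interval of its CPM ratio, -0.80 to 0.29, included 0. IFI44 is among the 12, but the interval of its CPM ratio, 0.59 to 8.80, lay above 0. Its effective length was 334 bases without Dox, where it had 1 count, and 848 bases with Dox.

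**Figure D2:**
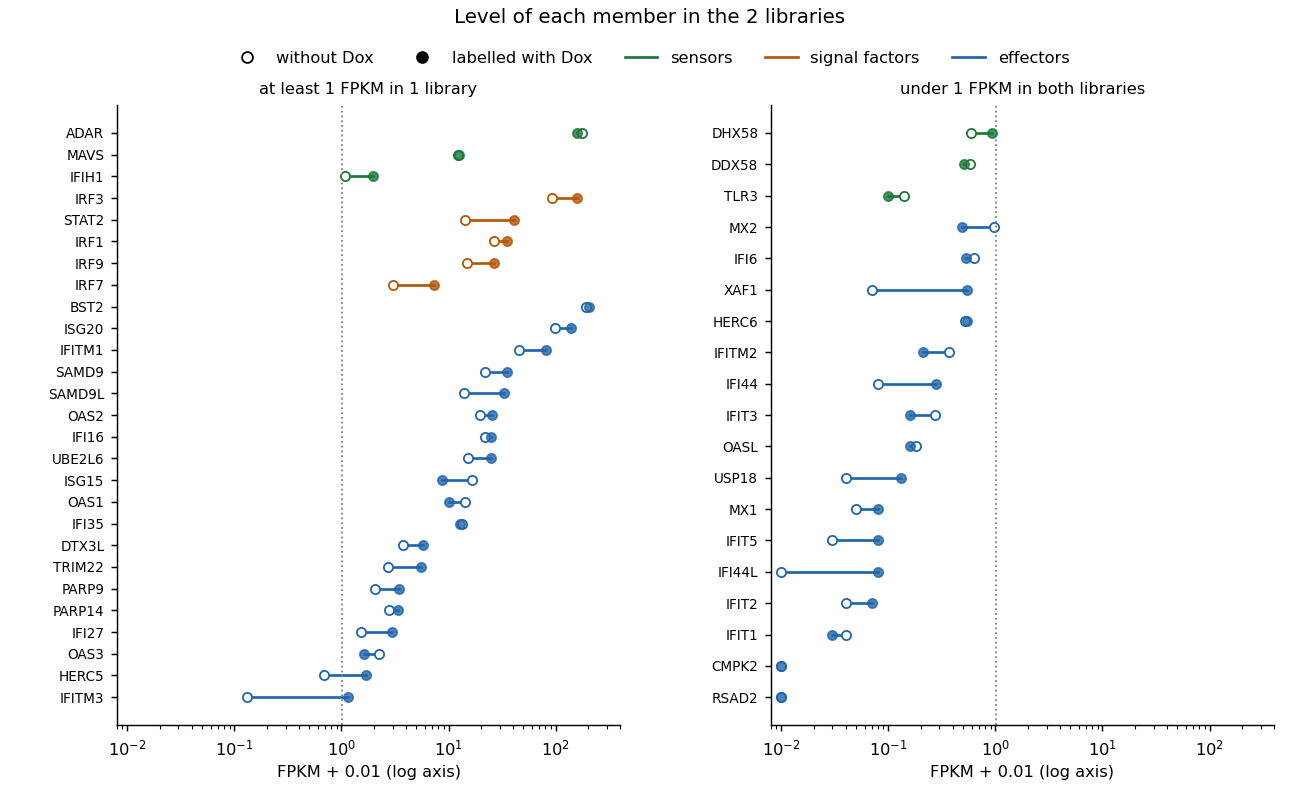
FPKM plus 0.01 (log axis) of all 46 members without Dox (open circles) and in the library labelled with Dox (filled circles), with the tested members on the left and the others on the right, coloured by role. The dotted line marks 1 FPKM, and RSAD2 and CMPK2 sit at the left edge, where the listed value is 0.

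Levels fell into a graded order rather than separate classes. BST2, ADAR, ISG20 and IRF3 led in both libraries, between 92.51 and 205.87 FPKM. IFITM1 followed at 45.59 FPKM without Dox, and IRF1, IFI16 and SAMD9 lay between 21.83 and 26.52 FPKM. Of the tested members, 17 reached 10 FPKM in at least 1 library. By summed CPM, all 46 members stood at 1788 without Dox and 2113 with Dox, and without ADAR at 1000 and 1385.

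The position of the genes and the sequence in front of them were not used directly to choose the members. The members were named as interferon-stimulated genes, however, so a high share with ISREs comes with that choice. The members lie on 17 chromosomes, and 9 clusters hold members within 100 kb of each other. The promoter windows of RefSeq (GRCh38.p14, 250 bases before to 50 after the gene start) matched 36 of the 46 members, with DDX58 listed there as RIGI. The core of the ISRE was searched on both strands as the letters GAAANNGAAA, and the gamma-activated site, an element of the response to interferon gamma, as TTCNNNGAA, which reads the same on both strands. An ISRE core was found in 20 of the 36 windows, 55.6%, beside 3.57% of all 35116 windows. A gamma-activated site was found in 9 of the 36, 25%, beside 7.66% of all windows. The 12 lines that follow show, in the direction of the gene, 1 such core for each of 12 members with 10 bases on each side, first for 8 members that were tested and then for 4 that were not. The capitals mark the core, which begins with TTTC where it lies on the other strand. Positions give the first base of the core, counted from the RefSeq gene start, with negative numbers before it.
SAMD9, position -136, chr7:93118096-93118125, reverse strand: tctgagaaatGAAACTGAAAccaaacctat
IFITM1, position -40, chr11:313990-314019, forward strand: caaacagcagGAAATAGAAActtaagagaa
IFITM3, position -35, chr11:320876-320905, reverse strand: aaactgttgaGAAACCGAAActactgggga
HERC5, position -74, chr4:88457035-88457064, forward strand: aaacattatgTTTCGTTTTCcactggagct
ISG15, position -107, chr1:1013380-1013409, forward strand: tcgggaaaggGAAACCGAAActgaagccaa
ISG20, position -69, chr15:88638937-88638966, forward strand: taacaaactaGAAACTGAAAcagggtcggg
BST2, position -130, chr19:17405741-17405770, reverse strand: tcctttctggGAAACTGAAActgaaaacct
IFIH1, position -153, chr2:162318818-162318847, reverse strand: tcgctttcctTTTCTGTTTCccgcggtgtc
IFIT1, position -103, chr10:89392510-89392539, forward strand: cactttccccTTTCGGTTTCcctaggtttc
IFIT3, position -122, chr10:89327865-89327894, forward strand: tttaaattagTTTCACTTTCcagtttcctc
IFI6, position -156, chr1:27672329-27672358, reverse strand: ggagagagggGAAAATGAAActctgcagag
IFI44L, position -73, chr1:78620365-78620394, forward strand: tcctagtgagGAAAAAGAAAgttagtggca

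The same letters thus stood in front of members at very different levels. Of the 20 members with a core in the window, 12 were tested and 8 were not, and of the 16 without one, 11 were tested and 5 were not. BST2, ISG20 and IFITM1 with a core were among the most abundant members, and IFIT1, IFIT3 and IFI44L with a core stayed under 0.3 FPKM. ISG15, which was lower with Dox, and SAMD9, which was higher, both had one. The 12 tested members with a core had a median log2 fold change of 0.65, with 2 more than 2-fold higher. The 11 without one had a median of 0.41, also with 2. The 2 higher members with a core were HERC5 and IFITM3, which were tested only through the library in which they were higher. The filter thus bears on that number and on the 0.65, so no difference between the groups is read from them. STAT2 and SAMD9L held no ISRE core in this window. Among all 270 tested genes with an ISRE core in their window, the median was 0.13 and 17.0% were more than 2-fold higher, beside 0.07 and 10.8% of the 8702 tested genes with a window lacking it.

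**Figure D3:**
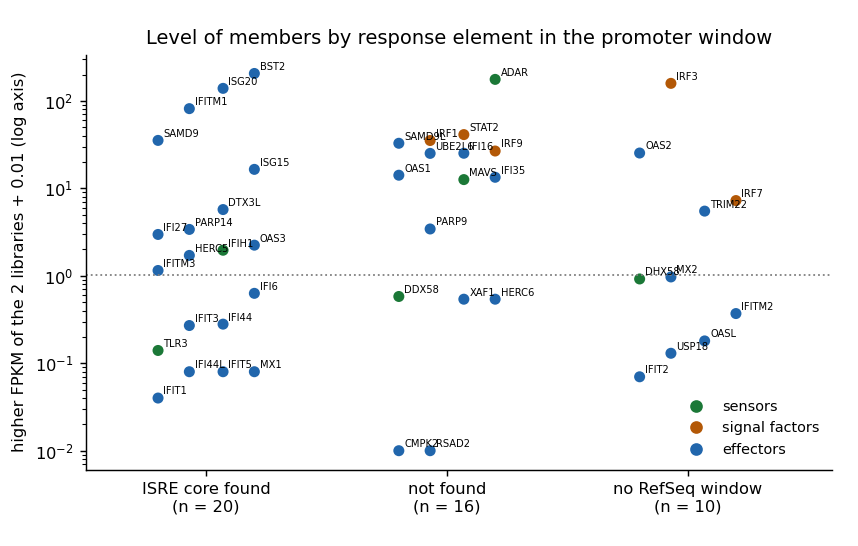
Higher FPKM of the 2 libraries plus 0.01 (log axis) for each member, by whether the letters of the ISRE core were found in the RefSeq promoter window (20 members), not found (16) or no window was matched (10), coloured by role. Members with a core lie on both sides of the dotted line at 1 FPKM, with IFIT1 far below it and BST2 far above it at 205.87 FPKM.

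The effective length of a gene, the mean over its transcripts weighted by their estimated abundance, differs between the libraries where the estimated mix of transcripts differs. It differed by over 0.1 on the log2 scale for 9 of the 27 tested members, 33.3%, beside 30.8% of all tested genes. For IRF3 it went from 807 to 655 bases, so that its CPM differed by 0.48 (log2) and its FPKM by 0.78. For IRF9 it went from 1028 to 880 bases, with 0.61 in CPM against 0.83 in FPKM. In IFI27 it went the other way, from 529 to 852 bases, with 1.65 in CPM against 0.92 in FPKM. Of the 5 members more than 2-fold higher, SAMD9L alone had a length ratio within 0.1, and all 5 were also past 2-fold in CPM. The gene IRF3 overlaps BCL2L12 on the other strand by 734 bases, and IRF9 lies within another annotated gene on the same strand. The counts of 12 tested members, IRF3 and IRF9 included, are not whole, as happens where reads are divided between genes they match equally. Whether strand was used in counting is not given in the sources used here.

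**Figure D4:**
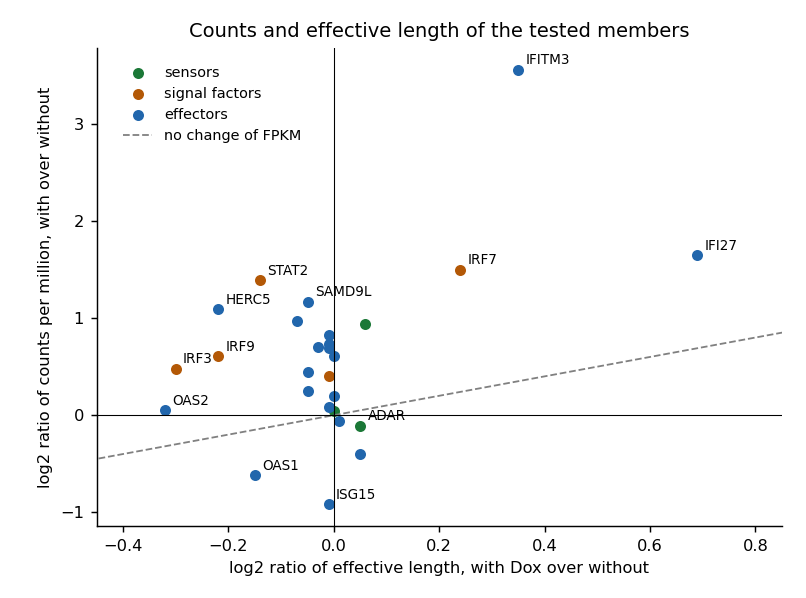
Log2 ratio of CPM (vertical axis) against log2 ratio of effective length (horizontal axis), with Dox over without, for the 27 tested members, coloured by role. Points on the dashed line would have nearly equal FPKM in both libraries, and OAS2, IRF3 and IRF9 lie to the left, where a shorter length adds to the FPKM difference.

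The remainder of the pathway was described with 109 further genes. Of 21 interferon genes, 0 reached 1 FPKM, and all 21 together held 4 counts without Dox and 7 with Dox. IFNB1, the first interferon made by most infected cells, was listed with 0 and 1 counts, IFNA13 with 1 and 3, IFNA21 with 1 and 0, IFNA4 with 0 and 1, IFNL1 with 2 and 1 and IFNL3 with 0 and 1. No interferon gene held more than 3 counts in either library.

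The receptor chains, kinases and STATs were all tested, 11 of 11, with a median of 0.24 and 0 past 2-fold downward. The shares of all tested genes were 6.41% downward and 17.0% upward, and those of the protein-coding ones 6.03% and 11.8%. In a list of 11 genes, 0 downward is near these shares. Among the genes of this list past 2-fold upward, IL10RB went from 6.56 to 15.61 FPKM (1.24). It is a chain shared by the receptors of interferon lambda and IL-10. IFNGR1, of the interferon gamma receptor, went from 5.78 to 12.53 FPKM (1.10, 0.96 to 1.27). The chains of the type I interferon receptor were at 30.33 and 27.50 FPKM for IFNAR1 and at 52.25 and 42.21 FPKM for IFNAR2.

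Among 20 tested genes of other sensors, adaptors and kinases, the 2-fold line was passed upward by 2 (10%) and downward by 1 (5%). Their median was -0.12. The shares of all tested genes were 17.0% upward and 6.41% downward, and those of the protein-coding ones 11.8% and 6.03%. ZBP1, a sensor of Z-form nucleic acid, went from 1.22 to 3.36 FPKM (1.39, 1.14 to 1.81), and RNF135, a ligase that activates RIG-I, from 10.01 to 20.55 FPKM (1.03, 0.93 to 1.15). TLR4, a receptor of bacterial lipopolysaccharide, went from 3.58 to 0.78 FPKM (-2.06, -2.43 to -1.98). Among 33 tested genes of other interferon-induced genes, the 2-fold line was passed upward by 3 (9.09%) and downward by 4 (12.1%). Their median was 0.04. APOL6 went from 5.14 to 17.96 FPKM (1.79), the chemokine CXCL10 from 7.47 to 17.43 FPKM (1.21) and the cytidine deaminase APOBEC3F from 3.78 to 7.99 FPKM (1.06). LY6E went from 55.30 to 23.94 FPKM (-1.20), LGALS9 from 3.56 to 1.62 FPKM (-1.09), the thiol reductase IFI30 from 77.06 to 36.52 FPKM (-1.08) and the antibody receptor TRIM21 had a log2 fold change of -1.07 from 12.73 FPKM. Of 8 tested negative regulators, 1 (12.5%) was more than 2-fold higher and 0 were more than 2-fold lower. The higher one was the deubiquitinase CYLD, from 11.47 to 31.75 FPKM (1.46, 1.39 to 1.55).

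The 72 tested pathway genes outside the members thus split evenly, with 35 above 0 and 37 below 0, a median of -0.02, 9 past 2-fold upward and 5 downward. That is 12.5% higher and 6.94% lower, beside 11.8% and 6.03% of tested protein-coding genes and 17.0% and 6.41% of all tested genes. The 27 tested members, chosen by name with earlier results of these libraries known, had 22 above 0 and 5 below 0. GO terms in the deposited tables overlap both sets. The term type I interferon signaling pathway was listed for 25 of the 46 members and for 103 genes in all, of which 72 were tested, with a median log2 fold change of 0.10, 6 past 2-fold upward and 1 downward. That is 8.33% upward and 1.39% downward, both below the shares of all tested genes and of the protein-coding ones. The term defense response to virus was listed for 33 members and for 311 genes in all, of which 194 were tested, with a median of 0.13, 23 past 2-fold upward (11.9%) and 9 downward (4.64%).

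**Figure D5:**
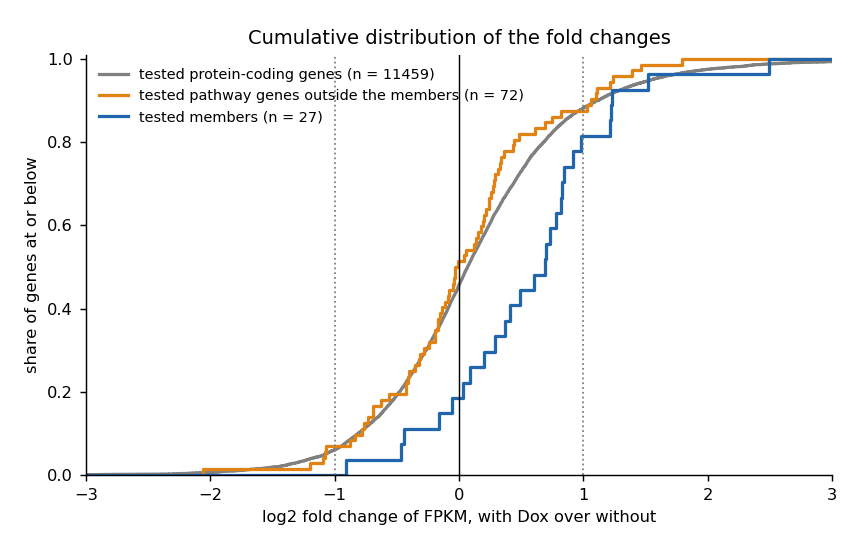
Cumulative share of genes (vertical axis) at or below each log2 fold change of FPKM, with Dox over without (horizontal axis), for the 27 tested members, the 72 tested pathway genes outside them and the 11459 tested protein-coding genes. The curve of the members lies to the right of the others up to the 2-fold line, and that of the other pathway genes runs close to the protein-coding genes.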

How the data were processed

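Polyadenylated RNA of ARP1 cells was sequenced on an Illumina instrument as paired reads of 150 bases. The authors deposited, for each library, expected counts, which are estimates and need not be whole, TPM values and FPKM values per gene, with the length and effective length of each gene, in the format RSEM writes. The submitters' processing notes list Bowtie 0.12.2, HISAT2 2.1.0, StringTie 1.3.4d and the build hg19, with no roles, whereas 202888 of the 204675 listed transcripts are identifiers of GENCODE release 29 (GRCh38), from which gene coordinates were taken.

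Members and lists were chosen with earlier results of these data known. All members are named, and so are other pathway genes past 2-fold, except that some results are not reported here. The study called genes with edgeR, which cannot estimate a dispersion from 1 library per condition, so no p-value is given. TMM factors came from edgeR 4.0.16 and size factors from DESeq2 1.42.0 in R 4.3.3, and the rest from Python 3.11.15 with pandas 2.3.3, numpy 2.4.6, scipy 1.17.1 and matplotlib 3.10.9. Expected counts were rounded for intervals and factors. Fold changes used a pseudocount of 0.1 FPKM and a minimum of 1 FPKM. The fold change and the counting interval were tested on simulated counts with known differences. The 9 alternatives covered the pseudocount, the filter, the scaling and the effective length. The annotation columns of the tables other than GO terms were not used.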

Additional observations from a re-analysis of the deposited data

How the results depend on the processing

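No paired analysis was possible because each condition has a single library, which also prevents leaving out a replicate. Over 10 alternatives, of which leaving out genes whose effective length moved by over 0.1 (log2) was chosen after seeing the data, the median of the tested members ranged from 0.45 to 0.79, that of the signal factors from 0.41 to 0.93 and that of the effectors from 0.37 to 0.70. The 0.41 of the signal factors is the value of IRF1, the only 1 left without the genes of moved length. Their next lowest median was 0.61, with CPM. With a pseudocount of 1 FPKM, the 5 of 27 tested members more than 2-fold higher became 3, beside 1606 of all 14859 tested genes. With a minimum of 5 FPKM they became 3 of 20, beside 1256 of 10480. Both settings keep STAT2, IRF7 and SAMD9L. Without the genes of moved length 1 of 18 was left, SAMD9L, beside 1617 of 10286. The number was 4 of 28 with a minimum of 100 counts and 6 of 27 with CPM or a pseudocount of 0.01. It was 7 of 27 with TPM and 7 of 44 with no filter. With the TMM or DESeq2 factors, 1 of 27 members, ISG15, was more than 2-fold lower, beside 1546 and 1526 of all 14859 tested genes. The median of the sensors, 0.03 over 3 genes, was -0.06 with no filter or with 100 counts, -0.07 with 5 FPKM, -0.18 with TMM and -0.17 with DESeq2 factors.

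Of the 72 tested pathway genes outside the members, the 9 higher became 5 with a pseudocount of 1, 4 with TMM and 5 with DESeq2 factors. With no filter, 13 of 94 were higher. The 5 lower became 3 with a pseudocount of 1, 2 with TPM and 7 with TMM or DESeq2 factors. With a minimum of 5 FPKM, 3 of 55 were lower. The median of these pathway genes was -0.02. It was 0.09 with no filter, 0.02 with 100 counts, 0.07 with TPM and 0.06 with CPM. With TMM factors it was -0.24, and with DESeq2 factors -0.23. Of all 14859 tested genes, the 2521 higher became 1606 with a pseudocount of 1, 1928 with TMM, 1946 with DESeq2 factors and 2834 with TPM. Where the genes counted changed, they were 4735 of 28230 with no filter and 1256 of 10480 with 5 FPKM. Without the genes of moved length they were 1617 of 10286. The 953 lower became 1546 with TMM and 1526 with DESeq2 factors, 1897 of 28230 with no filter and 603 of 10480 with 5 FPKM. The median of all tested genes was 0.15. It was 0.14 with a pseudocount of 1, 0.08 with 5 FPKM, 0.13 with 100 counts and 0.25 with TPM. With TMM it was -0.06, with DESeq2 factors -0.05, with CPM 0.17 and without the genes of moved length 0.12. The TMM and DESeq2 factors and TPM rescale each library as a whole, which shifted the median of all tested genes by -0.21, -0.20 and 0.10. The filters change the genes counted. Why the libraries differ in these factors, and the cause of the other shifts, was not tested. The sign of 4 tested members, MAVS, BST2, IFI16 and IFI35, turned with at least 1 scaling. Depth limits IFITM3 and most of the 19 members under 1 FPKM, which had medians of 6 and 12 counts. It limits DDX58, with 107 and 100 counts, and MX2, with 63 and 56, less.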
